A study of Mus musculus with 18 samples.

Results

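mTEClo were compared with cTEC in wildtype (WT) mice of the C57BL/6 strain. Both are subsets of thymic epithelial cells, the stromal cells of the thymus that instruct developing T cells. mTEClo were medullary thymic epithelial cells sorted as low for MHC class II, and cTEC were cortical thymic epithelial cells, for which the labels give no MHC class II level. The libraries were chosen by their labels alone: 3 of WT mTEClo and 3 of WT cTEC, which makes 6 of the 18 libraries of the series. Pools 1, 2 and 3 of WT mice each gave 1 library of either subset, so a library stands for pooled animals, and how many mice a pool held is not given in the sources used here. The other 12 libraries were WT mTEChi, the medullary cells high for MHC class II, and the 3 subsets from 3 pools of Kat7 knockout (KO) mice, also C57BL/6. KAT7 is a histone acetyltransferase, and how its gene was deleted is not stated in the labels used here. KO libraries share the estimate of spread in the test, and KO values are given only beside those of WT.

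In the thymic cortex, cTEC supply NOTCH ligands and chemokines to incoming progenitors and select T cells whose receptors bind self peptides. They make those peptides with a proteasome subunit and lysosomal proteases that few other cells use. In the medulla, mTEC test T cells for self-reactivity. The MHC class II-low compartment holds CCL21-secreting cells and precursors of the AIRE-positive cells. It also holds mimetic cells, which are mTEC that take on the programme of a peripheral cell type such as tuft, secretory, muscle or keratinised cells.

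The 6 libraries held 9815559, 7715987 and 6565309 counted reads for mTEClo of pools 1, 2 and 3, and 13300969, 18338441 and 18305050 for cTEC of the same pools. Values are CPM unless stated, listed in the order of pools 1, 2 and 3. CPM are a gene's reads scaled to the total of its library, after that total was multiplied by a normalization factor (TMM). Depth did not overlap between the subsets, and CPM corrects it only for scale. On the first principal component of the 9 WT libraries, which carried 75.5% of the variance, mTEClo and cTEC lay together and mTEChi apart. The second component carried 11.3% and separated mTEClo, at 37.4 to 41.9, from cTEC, at -42.4 to -28.9. Reads of mitochondrial genes made up 1.97 to 2.94% of mTEClo libraries and 1.08 to 1.87% of cTEC libraries. The 45S ribosomal RNA gene Rn45s took 0.974 to 1.23% in mTEClo and 0.363 to 0.672% in cTEC. With every library thinned to 3554089 reads, 15333 ± 149 genes had 5 or more reads in mTEClo and 15214 ± 105 in cTEC (SD, n = 3 each; two-sided exact permutation p = 0.4). Neither of the RNA shares overlapped between the subsets, and the part of either in the differences between the subsets was not tested.

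Of 19364 genes tested with edgeR's quasi-likelihood test, 5313 were called at an adjusted p below 0.05, which is 27.4%. In mTEClo 2515 genes were higher than in cTEC, 13.0% of those tested, and 2798 were lower, 14.4%. A fold of at least 2 was reached by 933 of the higher genes, 4.82% of all tested, and by 1067 of the lower genes, 5.51%. The median log2 fold change over all genes tested was 0.03, with mTEClo over cTEC throughout. Of the 5313 calls, 5109 had the same sign in each of the 3 pools. The calls were made from these same libraries, so this count is no independent check of them. Called or not, 3461 genes were higher and 3220 lower without overlap between the subsets, 34.5% of those tested. Lack of overlap in a single gene was thus common. In the fit of the 6 compared libraries alone with pool as a block, 517 genes were higher with a fold of at least 2.

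The cortical programme was lower in mTEClo. Of 20 genes of cortical identity, 15 were lower, 0 were higher and 5 were not called, with a median log2 fold change of -1.99 beside 14.4% lower and a median of 0.03 among all genes. Enpep, which encodes the surface aminopeptidase used to sort cTEC, had 4.7, 4.4 and 4.61 CPM in mTEClo, against 110.2, 117 and 77.2 CPM in cTEC. Prss16, the thymus-specific serine protease, had 52.1, 64 and 56.1 CPM in mTEClo and 1028, 857 and 554 CPM in cTEC. Psmb11, the thymoproteasome subunit, had 17.6, 20.3 and 14.9 CPM in mTEClo and 278, 277 and 142 CPM in cTEC. All 3 genes were low in every mTEClo library with no overlap, and pool 3 was the lowest of the cTEC libraries in each. Their log2 fold changes were -4.47 ± 0.18 for Enpep, -3.83 ± 0.24 for Prss16 and -3.72 ± 0.30 for Psmb11 (SE). The adjusted p-values from edgeR were 3.08e-12, 1.39e-09 and 3.88e-08 for Enpep, Prss16 and Psmb11. In bulk libraries such as these, fewer cells of a type and less RNA per cell cannot be told apart.

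**Figure D1:**
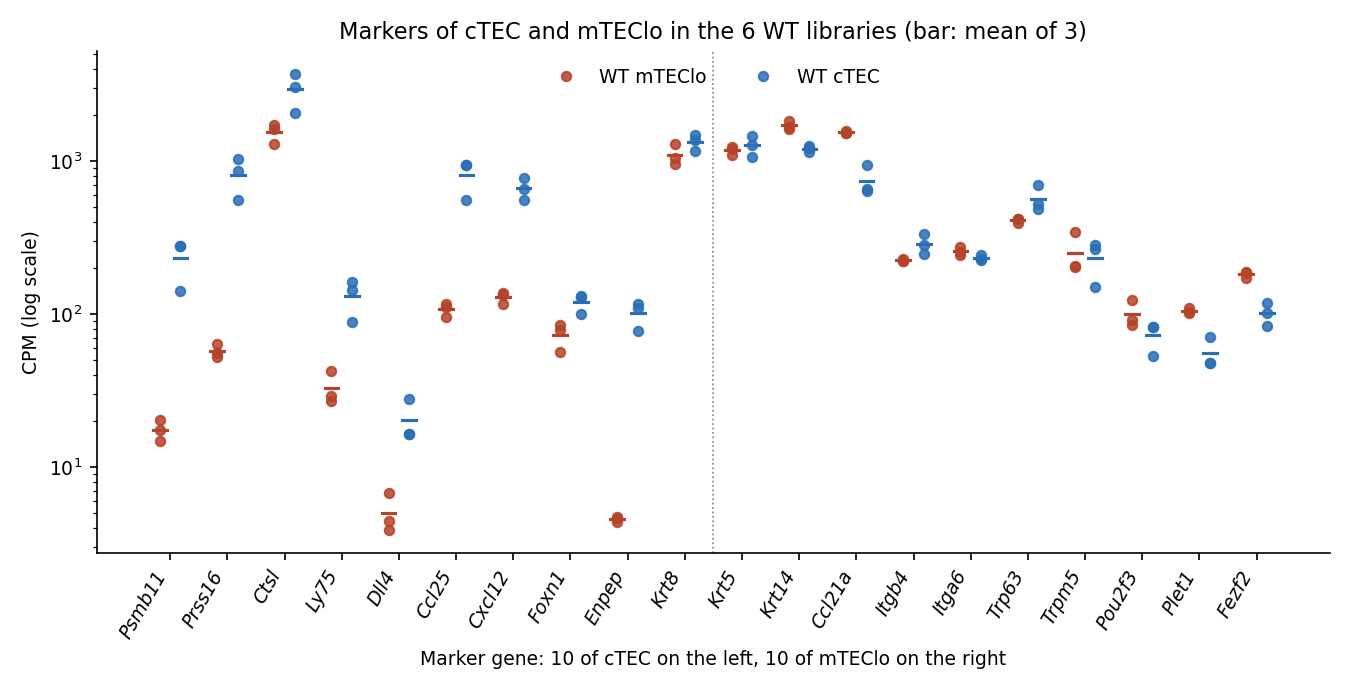
CPM on a log scale for 10 cTEC markers (left of the dotted line) and 10 mTEClo markers (right), with 1 point per WT library and a bar at the mean of 3; WT mTEClo is drawn left of WT cTEC. Of the cTEC markers, 9 were called lower in mTEClo, while of the mTEClo markers 4 were called higher, 1 lower and 5 not called.

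The signals by which cTEC attract and nurse progenitors followed the same direction. Ccl25, a chemokine that draws progenitors into the thymus, had 95.8, 112 and 116 CPM in mTEClo and 945, 949.5 and 559 CPM in cTEC. Cxcl12, a chemokine for early thymocytes, had 136, 134 and 116 CPM in mTEClo and 661, 779 and 559.7 CPM in cTEC. The groups were far apart for both, at log2 fold changes of -2.92 ± 0.21 and -2.37 ± 0.13. WT mTEChi averaged 1058 CPM for Ccl25 and 16.4 CPM for Cxcl12, so a high level of Ccl25 was not particular to cTEC. Kitl, the ligand of the KIT receptor on progenitors, fell by 2.70 on the log2 scale, with means of 5.1 CPM in mTEClo and 33.5 CPM in cTEC. Dll4, the NOTCH ligand that commits progenitors to the T lineage, had 6.74, 3.89 and 4.46 CPM in mTEClo and 27.8, 16.6 and 16.5 CPM in cTEC, a log2 fold change of -1.98 ± 0.36 (adjusted p = 0.000399, edgeR).

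Further cortical genes were lower by varied amounts. Ly75, the endocytic receptor DEC-205, averaged 32.9 ± 8.16 CPM in mTEClo and 132 ± 37.9 CPM in cTEC (SD, n = 3 each). Cd83, a membrane protein of cTEC needed for CD4 T cell selection, averaged 7.2 ± 2.39 CPM in mTEClo and 116 ± 42.2 CPM in cTEC. Foxn1, the transcription factor that controls thymic epithelial identity in cortex and medulla, fell by 0.72 on the log2 scale, with 84.4, 78.2 and 56.4 CPM in mTEClo and 129.5, 131 and 101 CPM in cTEC. Pax1, a pharyngeal pouch transcription factor, had 118, 100.1 and 82.1 CPM in mTEClo and 322, 300.3 and 319 CPM in cTEC. These 4 genes were lower in every mTEClo library than in any cTEC library. WT mTEChi averaged 87.8 CPM for Cd83, 112 CPM for Foxn1 and 39.5 CPM for Ly75, so Cd83 and Foxn1 were not particular to cTEC. Krt8 and Krt18, the keratins of cortical epithelium, overlapped between the subsets and were not called. Krt8 had 1295, 1053 and 963 CPM in mTEClo and 1476, 1160.0 and 1382 CPM in cTEC, with an adjusted p of 0.108 (edgeR). With pool as a block it was called, at an adjusted p of 0.0375, and likewise without mTEClo of pool 1 (0.0286) or cTEC of pool 2 (0.0421).

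The windows around the transcription start of 4 cortical genes that were lower in mTEClo are printed to show the 5 letters GACGC, a core bound by FOXN1, where they occur. Capitals mark GACGC or, for the other strand, GCGTC. Each runs from 250 bases before to 50 bases after the start on the strand of the gene and comes from RefSeq on GRCm38.p6.
Psmb11, chr14:54625060-54625359, plus strand: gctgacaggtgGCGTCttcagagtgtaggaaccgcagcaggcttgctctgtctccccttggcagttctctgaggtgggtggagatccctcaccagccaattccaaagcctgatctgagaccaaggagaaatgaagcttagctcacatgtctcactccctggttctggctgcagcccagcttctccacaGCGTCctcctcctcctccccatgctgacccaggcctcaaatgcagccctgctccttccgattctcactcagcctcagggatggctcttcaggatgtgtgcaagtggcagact
Ccl25, chr8:4324960-4325259, plus strand: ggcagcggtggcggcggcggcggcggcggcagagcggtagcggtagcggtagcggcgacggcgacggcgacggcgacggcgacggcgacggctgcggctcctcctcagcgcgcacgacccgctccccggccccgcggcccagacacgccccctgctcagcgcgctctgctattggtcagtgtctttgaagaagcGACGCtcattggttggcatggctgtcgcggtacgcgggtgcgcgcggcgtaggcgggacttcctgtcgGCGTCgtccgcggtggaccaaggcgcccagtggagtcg
Cxcl12, chr6:117168285-117168584, plus strand: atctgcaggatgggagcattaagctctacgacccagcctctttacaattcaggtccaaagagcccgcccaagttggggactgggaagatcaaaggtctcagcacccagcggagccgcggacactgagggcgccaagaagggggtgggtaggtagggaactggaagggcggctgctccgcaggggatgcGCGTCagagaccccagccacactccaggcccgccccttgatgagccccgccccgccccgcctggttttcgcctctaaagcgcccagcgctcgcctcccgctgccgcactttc
Enpep, chr3:129332700-129332999, minus strand: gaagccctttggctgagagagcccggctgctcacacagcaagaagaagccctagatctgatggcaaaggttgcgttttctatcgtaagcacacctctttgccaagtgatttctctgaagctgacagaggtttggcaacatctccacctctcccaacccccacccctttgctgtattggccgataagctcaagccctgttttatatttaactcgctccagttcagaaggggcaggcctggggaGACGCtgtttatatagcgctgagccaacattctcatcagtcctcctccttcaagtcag
The nearest match before the start began 62 bases upstream in Psmb11, 56 in Ccl25, 62 in Cxcl12 and 8 in Enpep. Of the 15 cortical genes lower in mTEClo, 13 had a window in the RefSeq table, with 14 windows in all because Ccl25 had more than 1. Of these 14 windows 7 held the letters, as did 27.2% of all 32851 windows of that length. The 4 printed windows, that of Ccl25 included, were picked among those with a match, and 6 of the 13 genes had none. A match is a description of these letters and not a binding site.

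Transcripts of the catalytic beta 5 position of the proteasome differed in make-up. Psmb11, Psmb5 and Psmb8 encode the thymus-specific, constitutive and immunoproteasome forms of this subunit. Per length (RPKM), Psmb11 made up 0.841, 1.06 and 0.824% of the 3 in mTEClo, against 17.6, 16.5 and 10.9% in cTEC. The share was low in every mTEClo library and lowest in pool 3 among cTEC, with no overlap. Means were 0.909 ± 0.134% in mTEClo and 15.0 ± 3.61% in cTEC (SD, n = 3 each), and the two-sided exact permutation test gave p = 0.1, the smallest that 3 against 3 allows. Psmb8 took 70.8 ± 2.26% in mTEClo and 58.9 ± 4.14% in cTEC, and Psmb5 took 28.3 ± 2.29% in mTEClo and 26.1 ± 1.52% in cTEC. The size of the Psmb11 share depends on gene length, since on counts not divided by length it was 3.36% in mTEClo and 39.8% in cTEC.

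**Figure D2:**
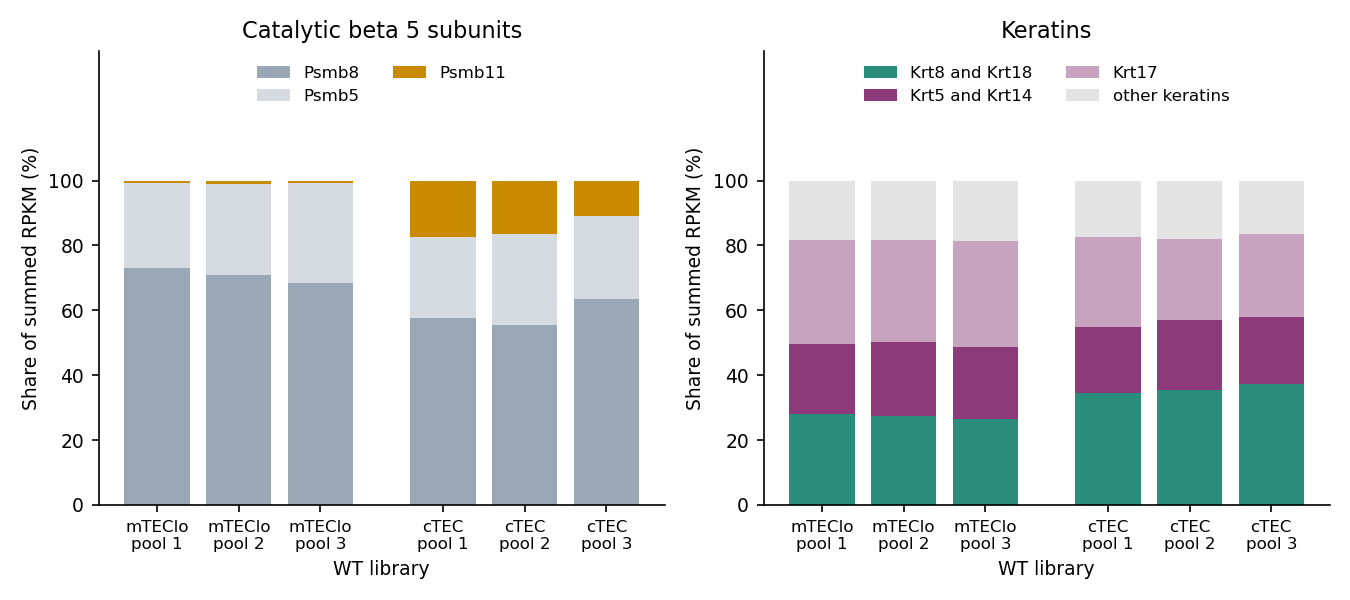
Shares of summed RPKM in each WT library, with mTEClo left of cTEC: left, the 3 catalytic beta 5 subunits of the proteasome; right, keratins in 4 classes. Psmb11 is a thin band of 0.824 to 1.06% in mTEClo and 10.9 to 17.6% in cTEC.

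Apart from Psmb11, the proteasome list moved the other way. Of its 22 genes, 12 were higher in mTEClo (54.5%, beside 13.0% of all genes), and Psmb11 was the 1 that was lower. Psme1, a subunit of the interferon-inducible PA28 activator, had 255, 273 and 256 CPM in mTEClo and 167, 174 and 179 CPM in cTEC. Psmb8 had 439, 390.5 and 356 CPM in mTEClo and 262, 268 and 239 CPM in cTEC. Their log2 fold changes were 0.59 ± 0.10 and 0.62 ± 0.11. None of the 12 reached a fold of 2.

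Of 16 lysosomal protease genes, 5 were higher in mTEClo (31.2%, beside 13.0% of all genes) and 4 lower (25.0%, beside 14.4%). Ctsl, which encodes cathepsin L of cTEC, had 1633, 1712 and 1301 CPM in mTEClo and 3046, 3739.6 and 2074 CPM in cTEC, a log2 fold change of -0.93 ± 0.17. Ctss, encoding cathepsin S, the protease of antigen-presenting cells, had 74.3, 71.9 and 79.1 CPM in mTEClo and 47.5, 39.6 and 47.7 CPM in cTEC, a log2 fold change of 0.74 ± 0.16. The pair moved in opposite directions without overlap between subsets. Per length, Ctsl made up 93.3 ± 1.26% of the pair in mTEClo and 97.7 ± 0.866% in cTEC (exact permutation p = 0.1, n = 3 each), so Ctsl outweighed Ctss in both. Ifi30, the lysosomal thiol reductase, averaged 67.6 ± 8.36 CPM in mTEClo and 41.1 ± 11.2 CPM in cTEC. In the autophagy list 6 of 20 genes were lower (30.0%, beside 14.4% of all genes) and 0 higher. Its smallest adjusted p was that of Gabarapl1, an autophagosome protein, at 13.8 ± 0.887 CPM in mTEClo and 30.6 ± 5.04 CPM in cTEC.

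Markers of mTEClo did not set the subsets apart in the way those of cTEC did. Of 10 mTEClo markers, 4 were higher in mTEClo, 1 was lower and 5 were not called. Among all genes 13.0% were higher and 14.4% lower. The mean CPM of the 10 markers in cTEC lay between 48.3 and 138% of that in mTEClo, with a median of 81.7%. Transcripts of medullary markers were thus plentiful in the libraries labelled cTEC. Krt5, the basal keratin used to outline the medulla, had 1194, 1232 and 1100.0 CPM in mTEClo and 1462, 1068 and 1282 CPM in cTEC. These overlapped, at a log2 fold change of -0.11 ± 0.16 (adjusted p = 0.636, edgeR). Trp63, the factor of epithelial stem cells, was lower in mTEClo, with 421, 416 and 394 CPM against 521, 697 and 486 CPM in cTEC. Whether medullary cells were among the sorted cTEC or cTEC made these transcripts cannot be told apart in these libraries.

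Over the 20 genes of medullary identity, 8 were higher in mTEClo and 4 lower, beside 13.0% higher and 14.4% lower among all genes. The median log2 fold change of the list was 0.06. Ccl21a, a chemokine that draws positively selected T cells to the medulla, had 1528, 1576 and 1535 CPM in mTEClo and 662, 942 and 638 CPM in cTEC, a log2 fold change of 1.05 ± 0.30 (adjusted p = 0.0145, edgeR). Copies of Ccl21 are nearly identical in sequence, so how its reads were split among them is uncertain. Fezf2, a regulator of tissue antigen expression, had 172, 186 and 189.8 CPM in mTEClo and 119, 84.1 and 102 CPM in cTEC. Neither of these genes overlapped between subsets. Krt14, the partner of Krt5, had 1845, 1676 and 1631 CPM in mTEClo and 1254, 1216 and 1149 CPM in cTEC. Plet1, a surface protein of epithelial progenitors, averaged 105 ± 3.86 CPM in mTEClo and 55.7 ± 13.3 CPM in cTEC. Cldn4, a tight junction claudin of mTEC progenitors, went the other way with 75.6, 40.3 and 43.9 CPM in mTEClo and 233, 92.4 and 134 CPM in cTEC.

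Aire and Cd40, genes of mature mTEC, were low in both subsets beside mTEChi. Aire, the regulator of tissue antigens that marks mature mTEC, had 27.3, 26.2 and 59.3 CPM in mTEClo and 45.4, 28.3 and 75.8 CPM in cTEC, which overlapped, while WT mTEChi averaged 1184 CPM. It was not called (adjusted p = 0.374, edgeR). Of the 13 genes of the mature mTEC list, 6 were higher in mTEClo (46.2%, beside 13.0% of all genes) and 0 lower. Cd40, which receives the maturation signal of T cells, had 65.4, 80 and 75.3 CPM in mTEClo and 38.3, 50.4 and 47 CPM in cTEC, against a mean of 464 CPM in WT mTEChi.

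**Figure D3:**
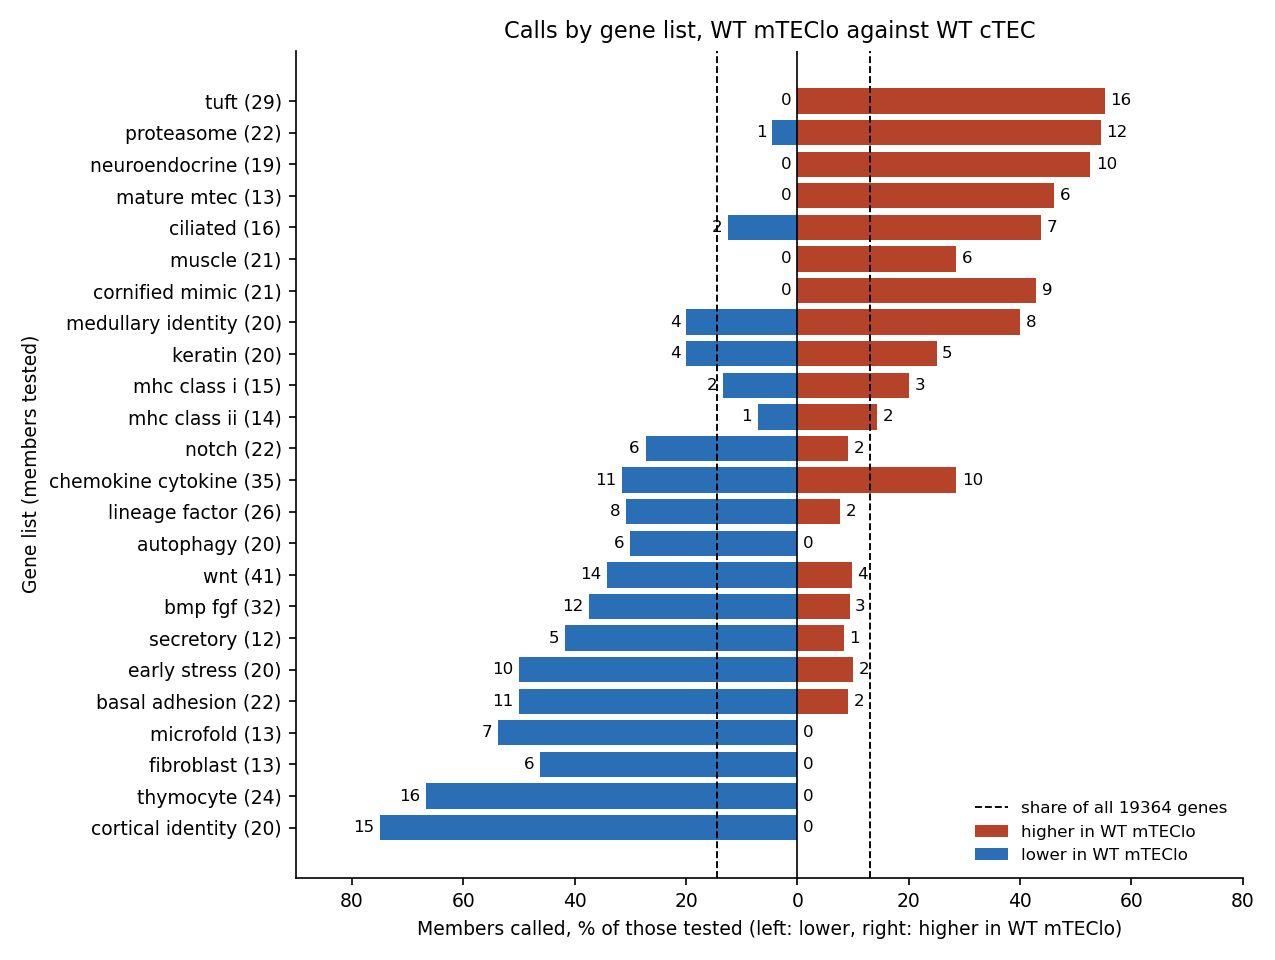
Members called higher (right) or lower (left) in WT mTEClo than in WT cTEC, as a percentage of the members tested, for 24 gene lists; numbers at bar ends are counts, and dashed lines mark the 13.0% and 14.4% called among all genes tested. Tuft, proteasome and neuroendocrine lists lean to mTEClo, and cortical identity, thymocyte and fibroblast lists to cTEC.

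Tuft cell genes leaned to mTEClo. Tuft cells are chemosensory epithelial cells that signal through taste receptor components and IL-25. Of 29 tuft genes, 16 were higher in mTEClo (55.2%, beside 13.0% of all genes), 0 lower and 13 not called. The median log2 fold change was 0.67. Gnat3, encoding gustducin of the taste cascade, had 971, 595 and 655 CPM in mTEClo and 324, 271 and 263 CPM in cTEC. Alox5ap, which activates leukotriene synthesis, had 181, 163 and 159 CPM in mTEClo and 61.2, 42 and 56.5 CPM in cTEC. Every mTEClo library stood above every cTEC library for both, with log2 fold changes of 1.37 ± 0.15 and 1.66 ± 0.17.

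Some defining tuft genes were not called. Trpm5, the cation channel of taste and tuft cells, had 344, 207 and 203 CPM in mTEClo and 282, 149.9 and 265 CPM in cTEC, which overlapped (adjusted p = 0.714, edgeR). Pou2f3, the tuft lineage factor, had 123, 84.7 and 91.9 CPM in mTEClo and 82.2, 53.6 and 82.9 CPM in cTEC. It was not called, at an adjusted p of 0.0756, but was with pool as a block (0.023) and without cTEC of pool 3 (0.0462). Avil, encoding advillin of the tuft cell brush, had 368, 237 and 221 CPM in mTEClo and 441, 163 and 479 CPM in cTEC. Pool 2 was the lowest cTEC library for all 3 genes. Without it 3 tuft genes were called lower in mTEClo, Avil among them (log2 fold change -0.74, adjusted p = 0.00386).

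Neuroendocrine genes, of cells that store peptide hormones in granules, leaned the same way. Of 19 tested, 10 were higher in mTEClo (52.6%, beside 13.0% of all genes) and 0 lower, with a median log2 fold change of 1.03. Snap25, a vesicle fusion protein, had 26, 18.4 and 19.8 CPM in mTEClo and 4.08, 5.68 and 4.58 CPM in cTEC. Stmn2, a microtubule regulator of neurons, had 46, 64.9 and 48.2 CPM in mTEClo and 14.3, 14.1 and 17.5 CPM in cTEC. Neither gene overlapped, and the log2 fold changes were 2.16 ± 0.21 and 1.79 ± 0.18. Chga, encoding chromogranin A of the granules, had 224, 159 and 150.1 CPM in mTEClo and 71.5, 20.1 and 28.1 CPM in cTEC. Its log2 fold change of 2.17 became 2.88 without cTEC of pool 1, its highest cTEC library.

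Keratinised, ciliated and muscle lists also had more members higher than lower. Of 21 genes of cornified cells 9 were higher (42.9%, beside 13.0% of all genes) and 0 lower. Krtdap, a protein of differentiating keratinocytes, had 137, 189 and 229.8 CPM in mTEClo and 90.8, 64.2 and 102 CPM in cTEC (1.11 ± 0.27). Of 16 ciliated cell genes 7 were higher (43.8%, beside 13.0% of all genes) and 2 lower (12.5%, beside 14.4%). Pifo, a ciliary protein, had 11.7, 14.1 and 10.3 CPM in mTEClo and 4.66, 5.62 and 6.23 CPM in cTEC, whereas Trp73, the master factor of multiciliated cells, was lower, at 3.78, 5.18 and 5.35 CPM in mTEClo and 15.1, 13.5 and 11.6 CPM in cTEC. Of 21 muscle genes 6 were higher (28.6%, beside 13.0% of all genes) and 0 lower. Myog, the myogenic factor myogenin, had 34, 23.2 and 28.4 CPM in mTEClo and 16, 15.6 and 10.1 CPM in cTEC (1.04 ± 0.20). Myl1, a fast muscle myosin light chain, had 12.3, 13.3 and 14.3 CPM in mTEClo and 1.6, 3.34 and 4.47 CPM in cTEC.

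Secretory and microfold genes ran the opposite way. Of 12 secretory genes 1 was higher in mTEClo (8.33%, beside 13.0% of all genes) and 5 were lower (41.7%, beside 14.4%). Bpifa1, an airway secretory protein, had 137, 193 and 315 CPM in mTEClo and 1486, 1079 and 1425 CPM in cTEC, and WT mTEChi averaged 379.6 CPM. Its cTEC libraries lay far above the mTEClo libraries, with a log2 fold change of -2.63 ± 0.36 (adjusted p = 2.73e-05, edgeR). Muc5b, an airway mucin, had 43.8, 23.3 and 20.8 CPM in mTEClo and 183, 87.8 and 90.5 CPM in cTEC. Tff3, a trefoil peptide of goblet cells, was the 1 that was higher, with means of 5.62 CPM in mTEClo and 1.23 CPM in cTEC. Its log2 fold change of 2.24 was 2.92 without cTEC of pool 1.

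Microfold cell genes mark the antigen-sampling cells of mucosal epithelium. Of 13 such genes 7 were lower in mTEClo (53.8%, beside 14.4% of all genes) and 0 higher. Tnfaip2, a marker of these cells, had 47.9, 48.6 and 53.5 CPM in mTEClo and 193, 98.5 and 155 CPM in cTEC. Tnfrsf11b, the RANKL decoy receptor osteoprotegerin, had 56.6, 33.3 and 64.8 CPM in mTEClo and 163, 115 and 134 CPM in cTEC. Gp2, the bacterial uptake receptor of these cells, had 965, 683 and 729 CPM in mTEClo and 1709, 1259 and 944 CPM in cTEC, which overlapped. Its adjusted p was 0.0508 and 0.0254 with pool as a block, and it was also below 0.05 without mTEClo of pool 1 (0.0411) or cTEC of pool 3 (0.0164). Of 20 enterocyte and hepatocyte genes 5 were lower (25.0%, beside 14.4% of all genes) and 1 higher (5.00%, beside 13.0%). Among them Krt20, a keratin of gut epithelium, had 28.2, 21.5 and 36 CPM in mTEClo and 132, 69.3 and 92.4 CPM in cTEC.

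**Figure D4:**
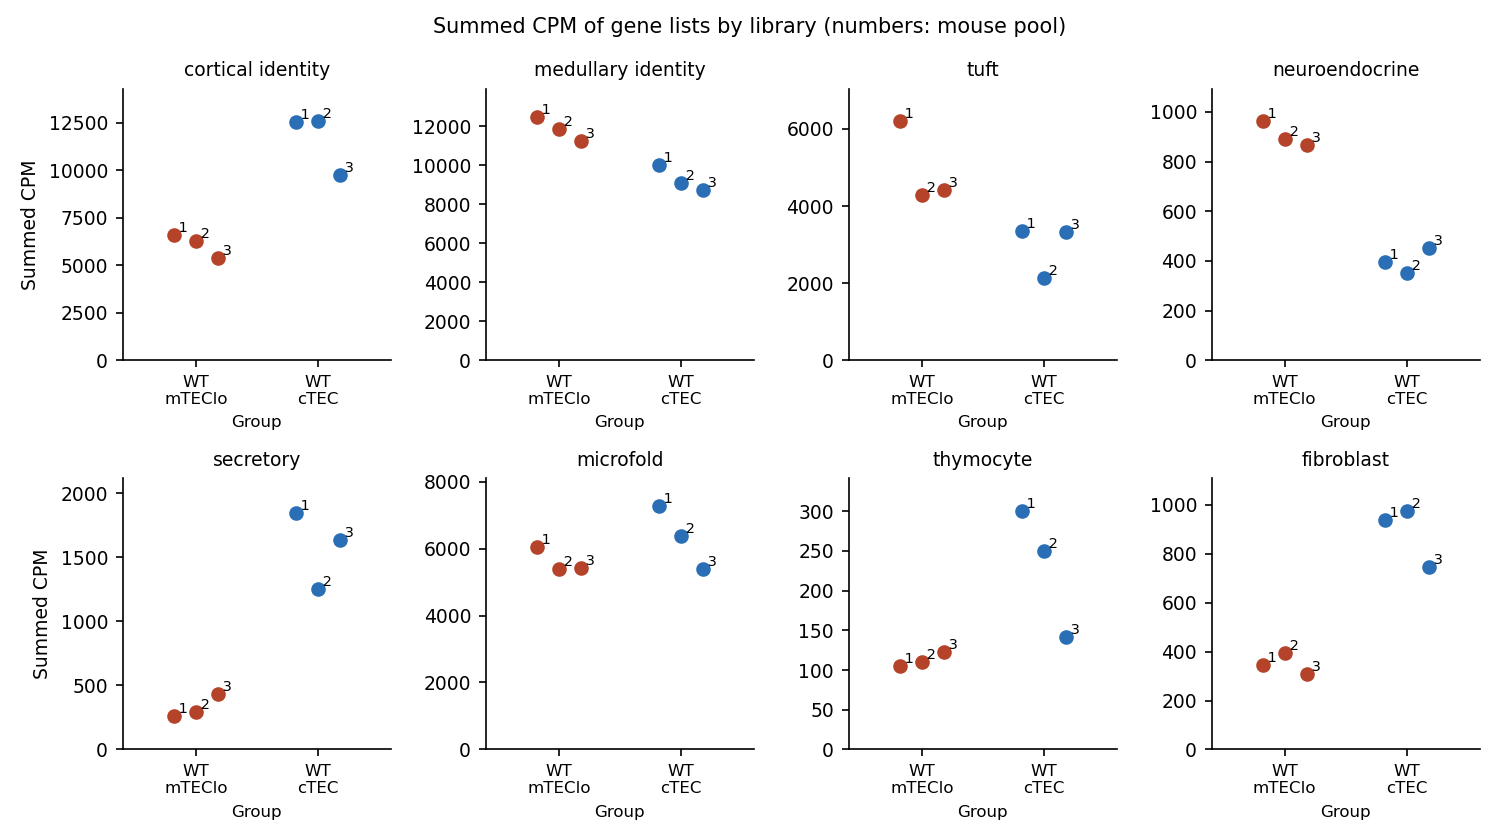
Summed CPM of 8 gene lists in each of the 3 WT mTEClo and 3 WT cTEC libraries, with the mouse pool beside each point and mTEClo left of cTEC. The neuroendocrine sums run from 865 to 962 in mTEClo and 349 to 453 in cTEC, and the thymocyte sums from 106 to 123 in mTEClo and 142 to 301 in cTEC, with cTEC of pool 3 the lowest of its group.

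The genes most raised in mTEClo, among those with no overlap and a mean of at least 5 CPM, included several of single peripheral tissues. Sst, encoding the hormone somatostatin, had 23.7, 19.3 and 21.6 CPM in mTEClo and 0.291, 0.106 and 0.0532 CPM in cTEC. Actc1, cardiac alpha actin, had 19.5, 25.5 and 19.3 CPM in mTEClo and 0.146, 0.902 and 0.0532 CPM in cTEC. Pth, the parathyroid hormone, had 187, 180.0 and 55.5 CPM in mTEClo and 22.4, 0.212 and 1.17 CPM in cTEC. All 3 genes were below 2 CPM in every cTEC library except for Pth in pool 1, so their log2 fold changes of 7.19 ± 1.03, 5.77 ± 0.51 and 4.25 ± 0.83 rest on few cTEC reads. The value for Pth was 7.65 without cTEC of pool 1 and 3.64 without cTEC of pool 2. That for Actc1 was 7.70 without cTEC of pool 2, and that for Sst was 7.91 without cTEC of pool 1. Matn1, a cartilage matrilin, had 17.1, 22 and 25 CPM in mTEClo and 2.98, 3.61 and 3.99 CPM in cTEC. Clca3b, of the calcium-activated chloride channel regulator family, had 75.1, 45.3 and 56.4 CPM in mTEClo and 10.3, 12.7 and 10.5 CPM in cTEC. The other 7 of the 12 most raised were Gpr139, Tmem212, Sprr2d, Ambp, Lgals7, Trem2 and Cdhr4, with log2 fold changes from 2.51 to 3.05. That of Ambp was 2.04 without cTEC of pool 2. Of 45 tested genes of single organs, 7 were higher (15.6%, beside 13.0% of all genes) and 3 lower (6.67%, beside 14.4%). All 7 were higher by a fold of at least 2, which 4.82% of all genes were. The remaining 11 of the 56 listed did not pass the filter on low counts, so the 45 are not the whole list. Crp, the liver's acute-phase C-reactive protein, had 161, 146 and 148 CPM in mTEClo and 28.4, 40.5 and 35.5 CPM in cTEC (2.12 ± 0.16).

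The genes most lowered in mTEClo held 4 of the cortical identity list, namely Enpep, Cd83, Prss16 and Psmb11. Aldh1a1, a retinal dehydrogenase, had 2.76, 2.46 and 2.23 CPM in mTEClo and 29.1, 38.7 and 48.7 CPM in cTEC. Prelp, a matrix proteoglycan that binds basement membrane, had 11.8, 13 and 9.52 CPM in mTEClo and 142, 203 and 147 CPM in cTEC. Scn1a, a voltage-gated sodium channel of neurons, had 8.17, 7.12 and 9.96 CPM in mTEClo and 101, 108 and 114 CPM in cTEC. These 3 had log2 fold changes of -3.95 ± 0.23, -3.84 ± 0.22 and -3.68 ± 0.23. Only genes without overlap between the subsets entered this ranking, so their separation follows from the choice. Abat, which breaks down the transmitter GABA, averaged 2.98 ± 1.35 CPM in mTEClo and 43.9 ± 10.7 CPM in cTEC. Inmt, a methyltransferase of tryptamines, averaged 0.548 ± 0.18 CPM in mTEClo and 12.1 ± 2.67 CPM in cTEC. Nefm, a neurofilament subunit, averaged 0.74 ± 0.421 CPM in mTEClo and 9.4 ± 1.93 CPM in cTEC. These were also among the 12 most lowered, and each averaged below 3 CPM in mTEClo. Car6, a secreted carbonic anhydrase, had 0.511, 0.907 and 0.446 CPM in mTEClo and 9.75, 4.51 and 25.4 CPM in cTEC, and its log2 fold change of -4.40 was -3.49 without cTEC of pool 3.

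Chemokines and cytokines changed in both directions, 10 higher and 11 lower of 35, against 13.0% and 14.4% of all genes. Il33, an alarmin of epithelial and stromal nuclei, had 2.96, 6.35 and 6.54 CPM in mTEClo and 54.9, 78 and 80.1 CPM in cTEC, a log2 fold change of -3.78 ± 0.28. Ackr4, the scavenger receptor for CCL25 and CCL21, had 34.7, 23.8 and 25.6 CPM in mTEClo and 151, 185 and 163 CPM in cTEC. Both were low in all mTEClo libraries. Higher in mTEClo were Cxcl10, an interferon-induced chemokine, with 754, 691 and 596 CPM against 365, 390.3 and 302 CPM in cTEC, and Ccl11, the eosinophil chemokine eotaxin, with 885, 1007 and 695 CPM against 367, 510.4 and 266 CPM in cTEC.

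Of 22 NOTCH pathway genes 6 were lower (27.3%, beside 14.4% of all genes) and 2 higher (9.09%, beside 13.0%). Beside Dll4, the ligands Dll1 and Jag2 were lower: Dll1 had 27.7, 34.6 and 25.7 CPM in mTEClo and 106, 77.5 and 75 CPM in cTEC, and Jag2 had 68.4, 65.9 and 54.3 CPM in mTEClo and 178, 115 and 168 CPM in cTEC. The inhibitory ligand Dll3 was higher, with 39.3, 31.3 and 28.9 CPM in mTEClo and 6.48, 9.97 and 4.47 CPM in cTEC (2.25 ± 0.32). Hes6, an antagonist of HES1, had 556, 583 and 460.3 CPM in mTEClo and 339, 301 and 287 CPM in cTEC. Of the receptors, Notch2 had 129.8, 127 and 114 CPM in mTEClo and 122, 122 and 102 CPM in cTEC and was not called (adjusted p = 0.558, edgeR).

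Of 14 MHC class II genes, which present antigen to CD4 T cells, 2 were higher in mTEClo (14.3%, beside 13.0% of all genes) and 1 was lower (7.14%, beside 14.4%). Cd74, the invariant chain, had 11583, 11091 and 9990.3 CPM in mTEClo and 10778, 12052 and 9004 CPM in cTEC, with a mean of 31249 CPM in WT mTEChi. H2-Ab1, a class II beta chain, had 7233, 6888 and 6166 CPM in mTEClo and 6901, 7339.6 and 5726 CPM in cTEC, with a mean of 18261 CPM in WT mTEChi. The groups overlapped for both, and the log2 fold changes were 0.04 ± 0.13 and 0.02 ± 0.12 (adjusted p = 0.866 and 0.918, edgeR). Rfx5, a promoter factor of these genes, was lower, with 17.2, 18.9 and 16.8 CPM in mTEClo and 33.8, 26.1 and 29.5 CPM in cTEC, while its partner Rfxank was higher, with 32.2, 34.1 and 37.2 CPM in mTEClo and 21.6, 25.5 and 24.2 CPM in cTEC. H2-Oa, a modulator of peptide loading, was higher at an adjusted p of 0.0487, a call that was lost on leaving out any 1 of the 6 libraries (adjusted p 0.0761 to 0.121).

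Of 15 MHC class I genes 3 were higher and 2 lower in mTEClo, beside 13.0% higher and 14.4% lower among all genes. The summed level of the list did not overlap, at 21045 to 22525 CPM in mTEClo and 16708 to 18798 CPM in cTEC. B2m, the light chain of class I, had 6805, 7208 and 7467 CPM in mTEClo and 4340.3, 5957 and 5677 CPM in cTEC. It was not called, at an adjusted p of 0.0672, and was called with pool as a block (0.0179) and without cTEC of pool 2 (0.0496). Tap2, a peptide transporter, was lower, with 137, 155 and 147 CPM in mTEClo and 283, 199.9 and 208 CPM in cTEC. Of 15 costimulatory genes 4 were higher (26.7%, beside 13.0% of all genes) and 2 lower (13.3%, beside 14.4%). Icosl, a ligand for activated T cells, had 62.3, 48 and 66.9 CPM in mTEClo and 33.1, 32 and 29.4 CPM in cTEC, and Cd274, the checkpoint ligand PD-L1, had 152, 131 and 127 CPM in mTEClo and 206, 215 and 173 CPM in cTEC. Of 22 genes of TNF receptor and NF-kappaB signalling 5 were higher (22.7%, beside 13.0% of all genes) and 5 lower (22.7%, beside 14.4%). Nfkb1, the p105 precursor, averaged 114 ± 11.9 CPM in mTEClo and 206 ± 14.8 CPM in cTEC, and its inhibitor Nfkbia averaged 1428 ± 9.1 CPM in mTEClo and 929 ± 61.3 CPM in cTEC.

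The genes of highest RPKM included class II and class I antigen presentation genes. In mTEClo, RPKM averaged 8345 for B2m, 7760 for Lars2, 7695 for Cd74, 7204 for Ifitm3 and 5668 for H2-Ab1, and in cTEC 6206 for B2m, 4337 for Lars2, 7499 for Cd74, 5025 for Ifitm3 and 5579 for H2-Ab1. An 87-base entry with no symbol had the highest RPKM in mTEClo, at 9883, and had 6682 in cTEC. Reads assigned to Lars2, which encodes the mitochondrial leucyl-tRNA synthetase, were higher in mTEClo at a log2 fold change of 0.84 ± 0.18. Lars2 took 2.27 to 3.57% of reads in mTEClo and 1.33 to 2.09% in cTEC. Whether all these reads came from its messenger RNA was not tested. COX1, a mitochondrially encoded oxidase subunit, had 7278, 9124 and 9232 CPM in mTEClo and 3213, 4856 and 4068 CPM in cTEC (1.08 ± 0.16).

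Among keratins, 5 of 20 were higher in mTEClo and 4 lower, beside 13.0% higher and 14.4% lower among all genes. Per length, Krt5 and Krt14 together made up 22.2 ± 0.564% of all keratin RPKM in mTEClo and 20.9 ± 0.614% in cTEC, without overlap (exact permutation p = 0.1, n = 3 each). On counts not divided by length this share overlapped, at 24.7 to 26.0% in mTEClo and 23.9 to 25.0% in cTEC (exact permutation p = 0.2). Krt8 and Krt18 made up 27.3 ± 0.872% in mTEClo and 35.7 ± 1.33% in cTEC. Krt17, a keratin of stressed and appendage epithelium, made up 32.1 ± 0.56% in mTEClo and 26.1 ± 1.46% in cTEC. The Krt5 part alone was 7.6 ± 0.503% in mTEClo and 9.22 ± 0.532% in cTEC, and the Krt14 part was 14.6 ± 0.188% in mTEClo and 11.7 ± 1.13% in cTEC, so the mean shares of the partner keratins differed in opposite directions. Krt7, a keratin of simple epithelium, had 1559, 1488 and 1352 CPM in mTEClo and 994, 1094 and 902 CPM in cTEC.

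Of 22 genes of basal adhesion, which tie epithelium to the basement membrane, 11 were lower in mTEClo, 2 higher and 9 not called. Beside these counts, 14.4% of all genes were lower and 13.0% higher. The median log2 fold change of the 22 genes was -0.40. Their summed level overlapped, at 5384 to 5876 CPM in mTEClo and 5858 to 6643 CPM in cTEC. Bcam, a laminin receptor, had 52.7, 47.4 and 43.9 CPM in mTEClo and 232, 221 and 209 CPM in cTEC. Lamb3, the beta chain of laminin-332, had 117, 120.1 and 102 CPM in mTEClo and 311, 214 and 239 CPM in cTEC. Its alpha chain gene Lama3 had 96.9, 101 and 108 CPM in mTEClo and 196, 159 and 159 CPM in cTEC. No member of the trio overlapped between subsets, and the log2 fold changes were -2.20 ± 0.18, -1.17 ± 0.15 and -0.74 ± 0.12. Itgb4, the integrin chain of hemidesmosomes, had 222, 223 and 231 CPM in mTEClo and 333, 284 and 249 CPM in cTEC. Its adjusted p was 0.0501, against 0.0475 with pool as a block and 0.0182 without cTEC of pool 3. Of 24 cell junction genes 6 were higher (25.0%, beside 13.0% of all genes) and 7 lower (29.2%, beside 14.4%). Epcam, the pan-epithelial adhesion molecule used to sort thymic epithelium, had 1288, 1217 and 1166 CPM in mTEClo and 872, 869.7 and 790.1 CPM in cTEC (0.54 ± 0.09).

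WNT, BMP and FGF pathway genes were lower in mTEClo more often than higher. Of 41 WNT genes tested 14 were lower (34.1%, beside 14.4% of all genes) and 4 higher (9.76%, beside 13.0%), with a median of -0.42. Wnt7b, a WNT ligand, had 7.25, 6.35 and 10.7 CPM in mTEClo and 30.6, 19.3 and 39.6 CPM in cTEC, and Tcf7l2, a nuclear effector, had 39.4, 50.1 and 46.7 CPM in mTEClo and 77.9, 86.3 and 111 CPM in cTEC. Kremen2, a WNT co-receptor inhibitor, was higher, with 76.4, 96.4 and 69.9 CPM in mTEClo and 38.3, 27.2 and 26.7 CPM in cTEC. Wnt4, another WNT ligand, had 269, 338 and 251 CPM in mTEClo and 286, 308 and 261 CPM in cTEC and was not called (adjusted p = 0.989, edgeR).

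Of 32 BMP and FGF genes 12 were lower (37.5%, beside 14.4% of all genes) and 3 higher (9.38%, beside 13.0%). Fgf1, a growth factor ligand, had 21.3, 17.6 and 19.9 CPM in mTEClo and 67.6, 61.5 and 61.8 CPM in cTEC. The feedback inhibitors of FGF signalling Spry1 and Dusp6 were lower: Spry1 had 28.1, 30.3 and 18.6 CPM in mTEClo and 76.5, 61.2 and 60.4 CPM in cTEC, and Dusp6 had 49.1, 40.3 and 46.3 CPM in mTEClo and 112, 77.2 and 110.0 CPM in cTEC. The BMP target genes Id2 and Id3 were higher. Id2 had 468, 539 and 468 CPM in mTEClo and 202, 262 and 226 CPM in cTEC, and Id3 had 864, 867 and 729.8 CPM in mTEClo and 495, 515 and 449 CPM in cTEC. Log2 fold changes were -1.69 ± 0.13 for Fgf1, -1.36 ± 0.20 for Spry1, -1.14 ± 0.17 for Dusp6, 1.09 ± 0.16 for Id2 and 0.75 ± 0.13 for Id3.

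Of 26 lineage transcription factors 8 were lower (30.8%, beside 14.4% of all genes) and 2 higher (7.69%, beside 13.0%). Tbx1, a pharyngeal factor, averaged 1.75 ± 0.554 CPM in mTEClo and 8.71 ± 3.49 CPM in cTEC. Ehf, an ETS factor of simple epithelium, was higher, with 373, 275 and 293 CPM in mTEClo and 203, 172 and 181 CPM in cTEC. Among 22 antioxidant genes 3 were higher (13.6%, beside 13.0% of all genes) and 5 lower (22.7%, beside 14.4%). Nqo1, a quinone reductase of the NRF2 programme, had 21.7, 25 and 22.5 CPM in mTEClo and 102, 125 and 111 CPM in cTEC (-2.29 ± 0.11), and Gclc, of glutathione synthesis, had 180.3, 173 and 183 CPM in mTEClo and 286, 275 and 312 CPM in cTEC.

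Of 20 DNA replication genes 4 were higher in mTEClo and 1 was lower, beside 13.0% higher and 14.4% lower among all genes, and of 20 mitosis genes 1 was higher and 2 lower. Mki67, the proliferation antigen, had 17.1, 15.9 and 16.8 CPM in mTEClo and 14.5, 18.8 and 22.7 CPM in cTEC, with a mean of 75.5 CPM in WT mTEChi, and was not called (adjusted p = 0.581, edgeR). Among 20 interferon-induced genes 2 were higher and 2 lower. Of 20 early response and stress genes, which tissue dissociation can induce, 10 were lower in mTEClo and 2 higher. Nr4a1, an immediate early nuclear receptor, had 42.9, 27.3 and 29 CPM in mTEClo and 261, 134 and 220.1 CPM in cTEC (-2.62 ± 0.28), and Jun had 3159, 2342 and 2428 CPM in mTEClo and 6476, 4008 and 5079 CPM in cTEC. The part of this response in the other differences was not tested.

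Markers of other cells differed as well. Of 24 thymocyte genes 16 were lower in mTEClo (66.7%, beside 14.4% of all genes) and 0 higher. Their summed levels were 106 to 123 CPM in mTEClo and 142 to 301 CPM in cTEC. Cd8a, the coreceptor of cytotoxic and double-positive thymocytes, had 0.613, 1.04 and 1.49 CPM in mTEClo and 13.2, 11.4 and 4.69 CPM in cTEC. Rag1, the recombinase of immature lymphocytes, had 0.306, 0.259 and 0.744 CPM in mTEClo and 14.3, 6.74 and 0.426 CPM in cTEC, so that pool 3 of cTEC lay within the mTEClo range. Pool 3 was the lowest cTEC library for 14 of these 16 genes and for 13 of the 15 cortical genes lower in mTEClo. The log2 fold change of Rag1, -4.05 in all libraries, was -3.08 without cTEC of pool 1. Without cTEC of pool 3, 18 thymocyte genes and 15 cortical genes were lower, and in the fit of the 6 compared libraries with pool as a block 8 thymocyte genes were. The part of thymocyte RNA in the differences of the epithelial genes was not tested.

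Of 13 fibroblast genes tested 6 were lower in mTEClo (46.2%, beside 14.4% of all genes) and 0 higher. Sums over the list were 307 to 395 CPM in mTEClo and 746 to 975 CPM in cTEC. Dcn, the matrix proteoglycan decorin, held most of these sums, with 226, 282 and 205 CPM in mTEClo and 549.5, 722 and 562 CPM in cTEC (-1.36 ± 0.13). Col3a1, a fibrillar collagen, had 29.8, 24.2 and 13.1 CPM in mTEClo and 270.3, 91.6 and 106 CPM in cTEC, and without cTEC of pool 1 its log2 fold change of -2.79 was -2.13. Of 8 mural cell genes 4 were higher in mTEClo and 1 lower, with sums of 882 to 1128 CPM in mTEClo and 693 to 700 CPM in cTEC. Rgs5, a pericyte marker, had 82.3, 83.5 and 90.6 CPM in mTEClo and 28.2, 37.1 and 47.9 CPM in cTEC. Of 16 myeloid genes 0 were higher and 3 lower, and of 10 B cell genes 2 were higher and 0 lower. Of 11 endothelial genes 2 were higher and 1 lower, and of 5 erythroid genes 0 were called. Beside these counts, 13.0% of all genes were higher and 14.4% lower. Cdh5, a defining marker of endothelium, had 0.306, 0 and 0 CPM in mTEClo and 0.291, 0.743 and 0.319 CPM in cTEC. The part of these cells in the epithelial differences was not tested.

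The subset difference was then set beside the same difference in KO mice, whose pools were other animals. Kat7 itself had 57.6, 38.6 and 43.1 CPM in WT mTEClo and 83.4, 75.4 and 57.7 CPM in WT cTEC, a log2 fold change of -0.63 ± 0.22 (adjusted p = 0.0354, edgeR), and it averaged 1.23 ± 0.642 CPM in KO mTEClo and 3.22 ± 0.949 CPM in KO cTEC (SD, n = 3 each). The WT call for Kat7 was lost without mTEClo of pool 2 or 3 or cTEC of pool 1 or 2, at adjusted p-values of 0.0722 to 0.145. The difference between genotypes was called for 5032 of 19364 genes, 26.0%. Of the 20 subset markers 7 were called. Trpm5 had a log2 fold change of 4.66 ± 0.24 in KO and 0.12 ± 0.20 in WT mice, and Pou2f3 one of 3.46 ± 0.21 in KO and 0.46 ± 0.19 in WT mice. In KO mice 29 of 29 tuft genes were called higher in mTEClo than in cTEC, against 16 in WT mice, beside 21.2% of all genes tested in KO and 13.0% in WT. Summed tuft levels were 471 to 528 CPM in KO cTEC and 2135 to 3344 CPM in WT cTEC. Psmb11 and Enpep were lower in mTEClo in both genotypes: Psmb11 fell by 3.28 in KO and by 3.72 in WT mice on the log2 scale, and Enpep fell by 4.75 in KO and by 4.47 in WT mice.

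**Figure D5:**
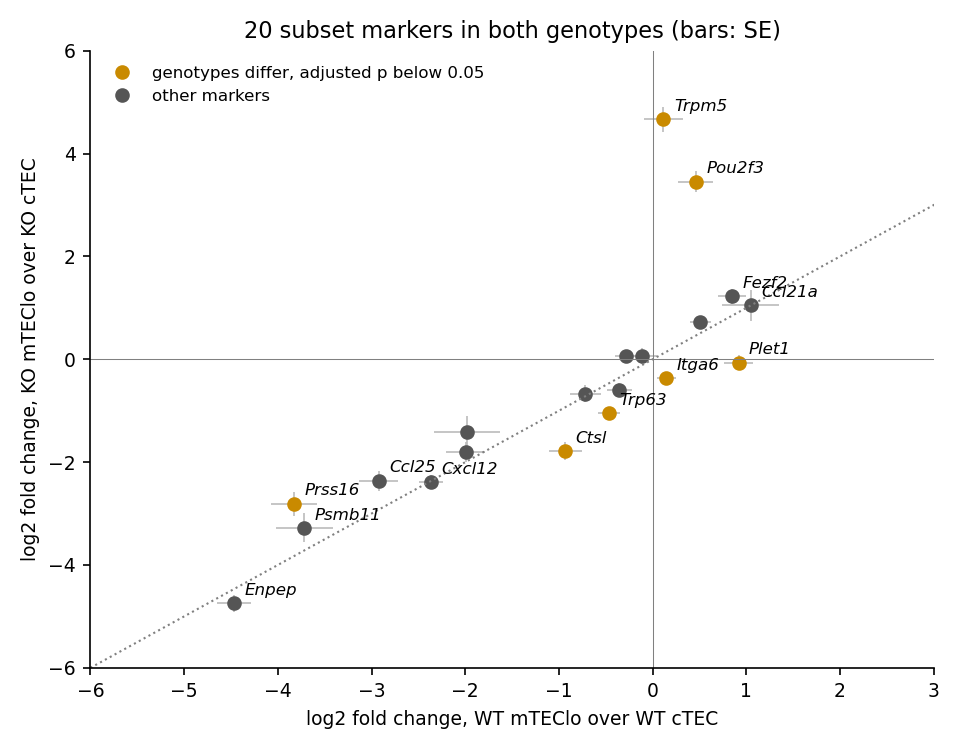
Log2 fold change of mTEClo over cTEC for the 20 subset markers, in WT mice on the horizontal axis and in KO mice on the vertical axis, with bars of 1 SE and a dotted line of equality. Trpm5 and Pou2f3 lie near 0 in WT and at 4.66 and 3.46 in KO, and the 7 markers in orange differed between genotypes at an adjusted p below 0.05 (edgeR).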

How the data were processed

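RNA of sorted thymic epithelial cells was amplified with SMART-Seq v4, tagged with Nextera XT and read as 75-base pairs, per the labels' protocols. The kit does not mark strand, so overlapping and antisense genes cannot be separated. No molecular identifiers were used, so reads are not independent molecules. SDs measure the spread between the 3 libraries of a group. SEs are the absolute log2 fold change divided by the square root of edgeR's F statistic. They rest on the spread estimated in the fit of all 18 libraries. The authors deposited a table of whole-number read counts per gene with gene lengths, not normalized. The submitters' processing notes name featureCounts and mm10; the aligner and versions are not given in the sources used here. All 18 single files were identical to the table.

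Counts of 27179 genes were filtered with filterByExpr (minimum count 10), scaled by TMM and tested with edgeR 4.0.16 (quasi-likelihood, 6 group means, all 18 libraries, 12 residual degrees of freedom). P-values were adjusted by Benjamini-Hochberg over 19364 genes, and calls are at 0.05. The test was also run on simulated counts in which all but a small set of genes had the same mean in every group. Many more genes were called here, so that run does not show how many of these calls are right. CPM are counts scaled to the total of each library times its TMM factor, and RPKM divide them by the deposited length. Of 1312 genes with no symbol in the files, 35 were named from RefSeq.

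Same-numbered libraries came from the same pool of mice, per the labels. Deviations from the group means correlated at 0.0922 to 0.208 between same-pool libraries and at -0.176 to 0.0652 between others. Pool as a block was an alternative, with RLE and upper-quartile scaling, DESeq2 1.42.0, no filter, fewer libraries and leaving out each library.

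Members and 41 gene lists were chosen with earlier results of these data known. Named genes were the subset markers, Kat7 and Aire, the 12 most raised and 12 most lowered (called, no overlap, mean of at least 5 CPM, no predicted or sex-linked genes), the 10 highest by RPKM, and per list up to 5 of smallest adjusted p and the 3 highest by CPM. Cd8a, Rag1 and Cdh5 are cell type markers. Some named genes are not reported here. For a sum or share, exact permutation tests over 3 against 3 libraries cannot go below 0.1.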

Additional observations from a re-analysis of the deposited data

Results flagged for a closer look

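The mTEClo to cTEC difference was larger or smaller in KO than in WT mice for 7 of the 20 subset markers, by the edgeR test of that difference itself, given here as the KO minus the WT log2 fold change. It was 4.55 for Trpm5 (adjusted p = 5.82e-09) and 3.00 for Pou2f3 (adjusted p = 1.38e-07), the pair that marks tuft cells. Among cortical markers it was 1.02 for Prss16 (adjusted p = 0.02), which was lower in mTEClo by less in KO, and -0.86 for Ctsl (adjusted p = 0.0136), which was lower by more. Among basal and progenitor markers it was -0.52 for Itga6 (adjusted p = 0.011), -0.58 for Trp63 (adjusted p = 0.0122) and -0.98 for Plet1 (adjusted p = 0.0025). Each group had 3 libraries, and KO and WT pools were different mice.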

How the results depend on the processing

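Numbers of calls moved with the libraries in the fit. Against 5313 calls with all 18 libraries, the 6 compared libraries alone gave 3051, with 1161 higher in mTEClo (448 by a fold of at least 2), and the 9 WT libraries gave 1619 higher. With pool as a block on 6 libraries, 517 were higher by a fold of at least 2; the replicate block on all 18 libraries changed no count by over 1.5 times. Leaving out 1 library gave 3939 to 5559 calls, 1860 to 2705 higher, 2079 to 2918 lower, 747 to 1107 higher and 912 to 1247 lower by a fold of at least 2, and 3928 to 5662 calls between genotypes.

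By list, leaving out 1 library gave 15 to 16 cortical genes lower and 0 to 1 higher, 6 to 8 medullary genes higher and 3 to 5 lower, 1 to 2 basal adhesion genes higher and 9 to 12 lower, 13 to 19 tuft genes higher and 0 to 3 lower, 1 MHC class II gene higher and 1 to 2 lower, and 11 to 18 thymocyte genes lower and 0 higher. Thymocyte genes lower numbered 8 with the 6 libraries alone, with or without the block. MHC class II genes higher numbered 1 with RLE or no filter, and those lower 3 with the block on 6 libraries and 2 with DESeq2. Basal adhesion genes higher numbered 1 with no filter or 6 libraries.

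Without division by length the mTEClo minus cTEC difference was -36.5 points for the Psmb11 share and -3.09 for the Ctsl share, against -14.1 and -4.37. For the Krt5 and Krt14 share it was 1.01 points against 1.33, and the subsets then overlapped. Leaving out 1 library gave -16.1 to -12.8 and -4.84 to -3.66 points, 1.05 to 1.66 for the Krt5 and Krt14 share, and 34.2 to 178 genes detected. With 1 or more reads 535 more genes were detected in mTEClo. The causes of these changes were not tested.

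Of 122 named genes tested, none changed direction with a call on either side in the settings that gave it a value, which were all 14 except DESeq2 for Sst and the fits of 6 libraries for Rag1, and the block on all 18 libraries added 6 calls and lost 0. With 3 pools a group, folds of genes below 1 CPM rest on few reads.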
